A study of Arabidopsis thaliana with 12 samples.

Results

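The tau and phi glutathione S-transferases (GSTs) are the largest GST classes of Arabidopsis thaliana and are found in plants. The genes described are the 28 tau genes GSTU1 to GSTU28 and the 9 phi genes GSTF2, GSTF3, GSTF6 to GSTF11 and GSTF14, 37 of the 33602 genes in the deposited tables. They were chosen by class and number, and the rule takes no measured value. The family was proposed, however, with the calls of these same comparisons known, so the counts of called genes below are a description of the family and are not independent evidence about it. The 4 other phi genes, GSTF4, GSTF5, GSTF12 and GSTF13, are outside the rule and are given beside it.

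Poly-A RNA of whole Col-0 seedlings was sequenced in 12 stranded libraries that form 4 groups of 3. The genotypes were wild type (WT) and a stable line that carries 35S:HIN1, called HIN1 here. Both had grown for 7 days on Murashige-Skoog agar without sugar before they were moved to fresh plates at -0.25 MPa (control) or to plates with polyethylene glycol at -0.7 MPa (stress) and harvested 96 h later. The construct is named pEG100 HIN1 in the labels, HIN1 is the gene AT3G11290, and its 35S promoter, from cauliflower mosaic virus, is active in nearly every organ. Only 1 transgenic line was used, the WT libraries also belong to a series on another mutant, and each library of a group stems from an experiment and extraction of its own. In whole seedlings, fewer cells of a type and less RNA per cell cannot be told apart.

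GSTs join the tripeptide glutathione to reactive or toxic compounds, and the conjugates are then carried into the vacuole by ABCC transporters. Tau enzymes are best known for herbicide and oxidised lipid conjugation, and several phi enzymes bind or conjugate defence compounds and hormones. Many of the genes lie in tandem arrays and are known to respond to salicylic acid, oxylipins and xenobiotics. TGA factors bind TGACG, WRKY factors bind the W box, and the ACGTG core is found in elements that respond to abscisic acid, the hormone of water deficit.

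The promoter windows are shown for 4 of the 6 genes that were higher in HIN1 at both water potentials. These are a part of the 13 members called between the genotypes. Each window holds the 250 bases before the annotated gene start, read 5′ to 3′ on the gene's own strand from the RefSeq TAIR10.1 genome. All 4 genes lie on the minus strand. The windows are chr2:12629641-12629890 for GSTU3, chr2:12627892-12628141 for GSTU4, chr1:26335631-26335880 for GSTU12 and chr1:659981-660230 for GSTF7. Capitals mark TGACG, the W box (TTGACC or TTGACT) and ACGTG, each searched on both strands.
GSTU3: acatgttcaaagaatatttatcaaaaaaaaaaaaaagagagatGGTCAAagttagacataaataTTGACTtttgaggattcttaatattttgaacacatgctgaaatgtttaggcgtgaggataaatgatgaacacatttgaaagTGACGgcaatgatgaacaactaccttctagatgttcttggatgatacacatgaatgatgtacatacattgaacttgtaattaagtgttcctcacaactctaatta
GSTU4: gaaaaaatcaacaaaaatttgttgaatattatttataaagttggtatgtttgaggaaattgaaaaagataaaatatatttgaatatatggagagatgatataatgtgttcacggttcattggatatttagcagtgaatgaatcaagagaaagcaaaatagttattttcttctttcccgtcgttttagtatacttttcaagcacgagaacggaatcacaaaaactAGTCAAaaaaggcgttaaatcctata
GSTU12: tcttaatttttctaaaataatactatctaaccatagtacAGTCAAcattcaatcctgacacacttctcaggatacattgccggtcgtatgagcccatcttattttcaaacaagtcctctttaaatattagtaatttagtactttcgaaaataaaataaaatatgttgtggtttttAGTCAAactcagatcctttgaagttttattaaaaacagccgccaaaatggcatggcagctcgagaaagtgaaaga
GSTF7: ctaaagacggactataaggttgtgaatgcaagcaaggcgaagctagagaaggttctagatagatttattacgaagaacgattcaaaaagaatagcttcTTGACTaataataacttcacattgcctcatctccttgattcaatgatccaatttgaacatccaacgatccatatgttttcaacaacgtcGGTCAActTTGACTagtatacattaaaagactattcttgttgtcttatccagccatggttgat
A W box was found in all 4 windows and in that of GSTU10, also higher in HIN1 at both water potentials, whose window lies within the neighbouring gene AT1G74600 and is not shown. Over the family, 19 of the 36 windows searched held a W box, against 28.4% of 27443 windows of the same length in the genome. GSTU3 alone of these 5 held TGACG, which was found in 14 of the 36 windows and in 18.6% of all windows. ACGTG was in none of these 5 windows, in 13 of the 36 and in 22.9% of all windows. ACGTG and TGACG can overlap. These are matches of letters in a fixed window and are not binding sites.

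Gene reads ran from 58 M to 68.56 M per library, and the family made up 0.2966% to 0.4525% of them. HIN1 itself stood at 12.7 to 14.5 scaled RPKM in the WT libraries and at 147 to 230 in the HIN1 libraries, as the labels give it. Levels here are scaled RPKM, that is RPKM recomputed with library sizes adjusted by TMM factors, so levels of different genes can be set side by side. Log2 fold changes are given with an approximate standard error, and each adjusted p comes from the quasi-likelihood test of edgeR, adjusted by Benjamini-Hochberg over the 22924 genes tested. A gene is called below an adjusted p of 0.05. Genes annotated on the other strand cover 100% of GSTF11, 75.5% of GSTU2 and 66% of GSTU7. All 37 members passed the filter on low counts. Of them, 32 held no read that mapped to several sites, and the highest share of such reads was 0.251%, in GSTF8. The kit was stranded, but whether the counting used the strand is not given in the sources used here.

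A small number of genes made up most of the family's transcript level. GSTF9 (AT2G30860), a phi enzyme with peroxidase activity, had a mean over the 12 libraries of 1086 scaled RPKM, which was 29% of the summed level of the family. GSTU19 (AT1G78380) followed with 518 and GSTU20 (AT1G78370), a partner of the jasmonate-conjugating enzyme JAR1, with 469. GSTF10 (AT2G30870), also known as the early dehydration gene ERD13, had 335, and GSTF2 (AT4G02520), which binds the defence compound camalexin, had 182. These 5 genes made up 69.1% of the summed level. The median member stood at 29 scaled RPKM, 27 members reached 10, and 3 stayed under 1, namely GSTU11, GSTU21 and GSTU15 at 0.683, 0.404 and 0.117. The libraries of GSTU19 and GSTU20 overlapped in both stress groups, so their order there is not beyond the spread.

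**Figure D1:**
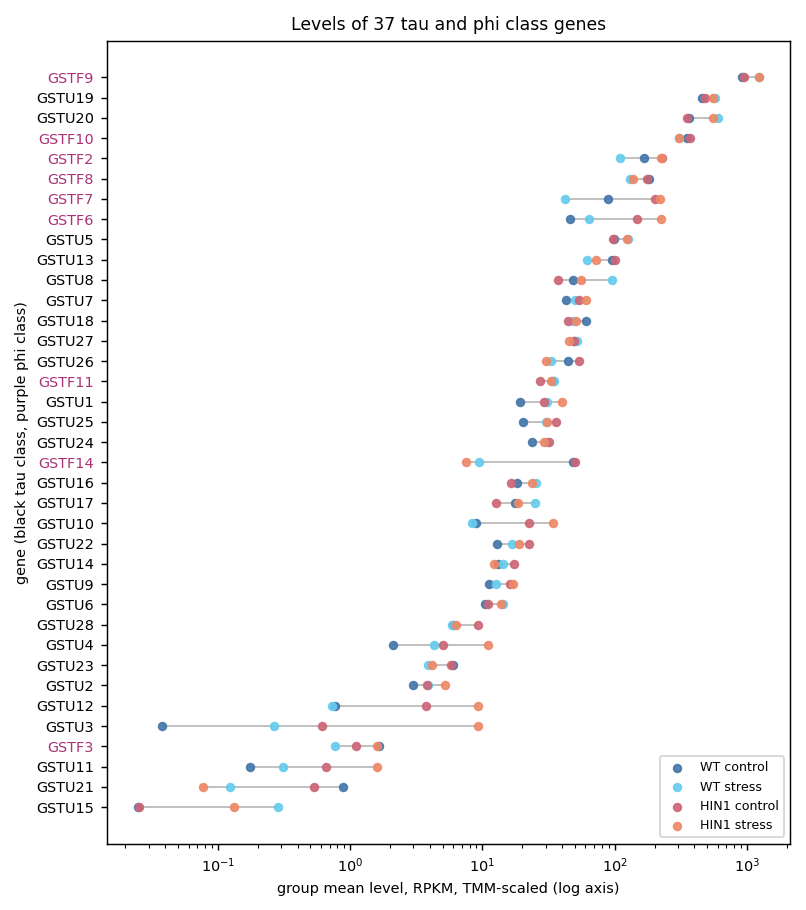
Level of the 37 members in scaled RPKM on a log axis, ordered by their mean over the 12 libraries, with points for the group means. GSTF9, GSTU19, GSTU20, GSTF10 and GSTF2 hold 69.1% of the summed level, and the members span 4 orders of magnitude.

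The summed level of the family was 3275 ± 143 scaled RPKM in WT control and 3814 ± 203 in WT stress (SD, n = 3 here and below). It was 3672 ± 175 in HIN1 control and 4220 ± 218 in HIN1 stress. The tau genes summed to 1440 ± 43.4, 1874 ± 105, 1512 ± 98.1 and 1840 ± 130 in that order of groups, so their sum was higher at stress than at control in both genotypes and the genotypes overlapped. The phi genes summed to 1836 ± 108, 1940 ± 164, 2160 ± 99.4 and 2381 ± 221. The phi sum of every HIN1 library lay above that of every WT library, but only just. HIN1 control library 2 had 2057 and WT stress library 1 had 2054. The 4 phi genes outside the rule are not in this sum. They summed to 24.7 in HIN1 control library 2 and to 92.4 in WT stress library 1, and with them added the order of these libraries reverses.

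The response of WT to low water potential was compared first. Of the 37 members, 14 were higher at stress and 8 lower, that is 59.5% of the family, against 31.6% of all genes tested, with 14.9% higher and 16.7% lower. The median log2 fold change was 0.21 in the family and -0.00 over all genes. The classes went different ways. Of 28 tau genes 13 were higher and 4 lower, with a median of 0.35, and of 9 phi genes 1 was higher and 4 lower, with a median of -0.47. In HIN1, 14 members were higher at stress and 6 lower, 54.1% of the family against 27.1% of all genes, with 14.7% higher and 12.5% lower, and the median was 0.22. There 13 tau genes were higher and 4 lower, with a median of 0.27, against 1 phi gene higher and 2 lower, with a median of 0.13. Groups did not overlap for 24 members in WT, where the background is 43.1% of genes, and for 27 in HIN1, where it is 45.4%.

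The 3 most abundant members, GSTF9, GSTU19 and GSTU20, were called higher at stress in both genotypes, and GSTF10 and GSTF2, next in level, were not. GSTF9 stood at 912, 880 and 958 scaled RPKM in WT control, 1318, 1139 and 1264 in WT stress, 1010, 878 and 986 in HIN1 control and 1179, 1243 and 1261 in HIN1 stress. Every stress library lay above every control library. The log2 fold change was 0.44 ± 0.08 in WT (adjusted p = 0.00152) and 0.36 ± 0.08 in HIN1 (adjusted p = 0.0057). GSTF9 is followed on the chromosome by GSTF10, with no gene between them and 77.6% of coding bases identical, and GSTF10 had log2 fold changes of -0.20 (adjusted p = 0.0742) and -0.28 ± 0.08 (adjusted p = 0.0205).

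GSTU19 and GSTU20 are neighbours at the end of the tandem array GSTU19 to GSTU23, which lies on chromosome 1 from 29467412 to 29488007. GSTU19 stood at 449, 446 and 479 in WT control, 623, 576 and 534 in WT stress, 516, 469 and 450 in HIN1 control and 562, 582 and 531 in HIN1 stress. Stress libraries lay above the controls of the same genotype, by 0.34 ± 0.08 on the log2 scale in WT (adjusted p = 0.00583) and 0.22 ± 0.08 in HIN1 (adjusted p = 0.0473). The call in HIN1 was lost in 5 of 6 fits that left out 1 library, with adjusted p up to 0.169 without HIN1 control library 3. It was also lost with other size factors, with no filter on low counts and with only the groups compared. GSTU20 stood at 366, 367 and 362 in WT control, 628, 605 and 571 in WT stress, 407, 338 and 307 in HIN1 control and 625, 613 and 435 in HIN1 stress. Its groups did not overlap either, with log2 fold changes of 0.72 ± 0.13 (adjusted p = 0.0017) and 0.67 ± 0.13 (adjusted p = 0.00305).

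Of the other members of that array, GSTU21 and GSTU23 were called lower at stress in WT. GSTU22 was called higher in WT, as these 2 genes were, but lower in HIN1. GSTU21 (AT1G78360) was read rarely, with 47, 24 and 38 reads in WT control, 13, 4 and 0 in WT stress, 32, 18 and 16 in HIN1 control and 6, 2 and 2 in HIN1 stress. Its log2 fold change was -2.74 ± 0.66 in WT (adjusted p = 0.00844) and -2.73 ± 0.74 in HIN1 (adjusted p = 0.0178). These folds rest on few reads. Without WT stress library 1 the WT value was -4.08 and without library 3 it was -2.20, and in HIN1 it was -3.44 without stress library 1. The HIN1 call was lost in 3 fits that left out a library, with adjusted p up to 0.0666 without HIN1 stress library 2. GSTU23 fell by 0.65 in WT (adjusted p = 0.00947).

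GSTU22 (AT1G78340), of the same array, was the one member called in opposite directions in the 2 genotypes. It stood at 11.9, 12.4 and 14.6 scaled RPKM in WT control, 18.2, 16.2 and 15.5 in WT stress, 21.8, 21.9 and 24.3 in HIN1 control and 19.1, 18.8 and 18.6 in HIN1 stress. In WT every stress library was above the controls, and in HIN1 every stress library was below them. The log2 fold change was 0.36 ± 0.09 in WT (adjusted p = 0.00945) and -0.27 ± 0.09 in HIN1 (adjusted p = 0.04). The difference between these responses was -0.63 ± 0.12 and was not called (adjusted p = 0.102), but it was called by DESeq2 and without WT control library 3. The HIN1 call was lost in all 6 fits that left out 1 library, with adjusted p up to 0.132 without HIN1 control library 3, and was lost with a replicate block (adjusted p = 0.0541).

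The array GSTU1 to GSTU7 on chromosome 2, from 12617936 to 12632538, moved in 1 direction at low water potential. All 7 genes had positive log2 fold changes in both genotypes, 5 were called higher in WT and 6 in HIN1, and none was called lower. GSTU5, the most abundant of them, rose by 0.34 in both genotypes (adjusted p = 0.0363 in WT and 0.0413 in HIN1), from 86.6 to 113 scaled RPKM across the 6 control libraries to 107 to 136 across the 6 stress libraries, so these ranges overlapped. GSTU6 rose by 0.45 ± 0.11 in WT (adjusted p = 0.00808) and by 0.32 in HIN1 (adjusted p = 0.048). GSTU2 was called in HIN1 with 0.44 ± 0.15 (adjusted p = 0.0483) and had 0.39 in WT (adjusted p = 0.0741). GSTU7 was not called in any comparison. Of the 6 fits per comparison that left out 1 library, the calls of GSTU5 were lost in 4 in each genotype, that of GSTU6 in HIN1 in 5 and that of GSTU2 in all 6. The HIN1 calls of GSTU6 and GSTU2 were also lost with no filter on low counts, and that of GSTU6 with other size factors. With only the groups compared the WT call of GSTU5 was lost.

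GSTU8 (AT3G09270), a single gene on chromosome 3, had the smallest adjusted p of the family in WT. It stood at 46.5, 46.4 and 53.3 in WT control and at 104, 89.7 and 93.5 in WT stress, against 38, 35.5 and 37.4 in HIN1 control and 56.2, 57.1 and 53.1 in HIN1 stress. Stress was above control in both genotypes, with log2 fold changes of 0.97 ± 0.07 (adjusted p = 2.72e-06) and 0.59 ± 0.07 (adjusted p = 0.000128). GSTU16 and GSTU17, the second of which is known from mutants with altered drought tolerance and light signalling, rose by 0.46 and 0.50 in WT (adjusted p = 0.0217 and 0.0338) and by 0.53 and 0.55 in HIN1 (adjusted p = 0.0128 and 0.0253). All 4 of these calls were lost in at least 1 fit that left out a library, with adjusted p up to 0.116 for GSTU17 in WT without WT stress library 2. GSTU17 and GSTU18 overlap by 71 bp on the same strand, and GSTU18 fell by 0.33 in WT (adjusted p = 0.0336), a call lost in 4 such fits, with adjusted p up to 0.146 without WT control library 1. GSTU15 (AT1G59670) had 2, 0 and 2 reads in WT control, 19, 10 and 18 in WT stress, 2, 0 and 2 in HIN1 control and 2, 8 and 12 in HIN1 stress. Its WT groups did not overlap, with a log2 fold change of 3.38 ± 0.82 (adjusted p = 0.00896) that rests on these few reads. Its reads reached 10 only in the WT stress libraries and in HIN1 stress library 3. The filter thus kept GSTU15 through libraries where it was high, and its lack of overlap in WT is no separate support. GSTU15 was not called in HIN1 (2.30 ± 0.91, adjusted p = 0.0821).

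**Figure D2:**
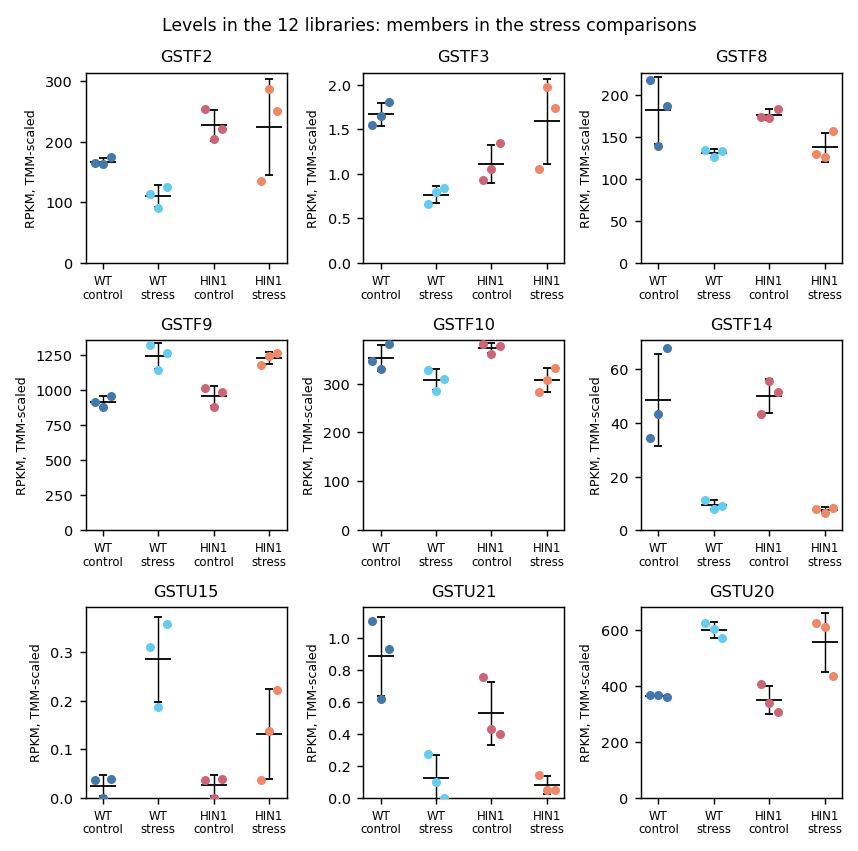
Level in every library of 9 members in the stress comparisons, in scaled RPKM on linear axes from 0, by group, with points for libraries and bars for the group mean and SD (n = 3). GSTF14 and GSTU21 lie lower at stress in both genotypes, and GSTF9 and GSTU20 lie higher. The filter on low counts kept GSTU21 through its control libraries.

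Among the members that fell at stress was GSTF14 (AT1G49860), a phi gene on chromosome 1 at 18458526 to 18459969. It stood at 34.4, 43.3 and 67.8 scaled RPKM in WT control, 11.3, 8.02 and 8.94 in WT stress, 43.2, 55.7 and 51.3 in HIN1 control and 7.9, 6.48 and 8.26 in HIN1 stress. Every stress library lay well below every control library. The level was 5.15-fold lower in WT (log2 fold change -2.36 ± 0.23, adjusted p = 2.01e-05) and 6.63-fold lower in HIN1 (-2.73 ± 0.23, adjusted p = 1.07e-05). GSTU13 (AT1G27130), which takes part in indole glucosinolate metabolism, fell by 0.64 ± 0.06 in WT (adjusted p = 1.99e-05) and by 0.49 in HIN1 (adjusted p = 0.000162). It went from 88.7 to 103 across the control libraries to 59.9 to 76.0 across the stress libraries. GSTF8, long studied for its early response to pathogens, fell by 0.47 ± 0.14 in WT (adjusted p = 0.0214), a call lost in 3 fits that left out a library, with adjusted p = 0.104 without WT control library 1. GSTU26 was called lower in HIN1 alone, with -0.83 ± 0.22 (adjusted p = 0.0168) against -0.43 in WT (adjusted p = 0.165), and the difference between the responses was not called. The HIN1 calls of GSTU26 and GSTF10 were lost in 2 and 3 fits that left out a library, with adjusted p up to 0.0659 and 0.0836.

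The genotypes were then compared at each water potential. At control, 10 of 37 members were higher in HIN1 and 1 was lower, 29.7% of the family, against 2.76% of all genes tested, with 2.19% higher and 0.576% lower. At stress, 8 members were higher and 1 lower, 24.3% of the family, against 3.42% of all genes, with 3.23% higher and 0.196% lower. The median log2 fold change of the family was 0.09 at control and 0.07 at stress. Of the tau genes 8 were higher and 1 lower at control, and 4 higher and 1 lower at stress. Of the phi genes 2 were higher at control and 4 at stress. Groups did not overlap for 17 members at control, against a background of 21.2%, and for 18 at stress, against 16.8%. Both stress comparisons share their control libraries with these comparisons, and the values are given side by side without a test of their likeness.

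**Figure D3:**
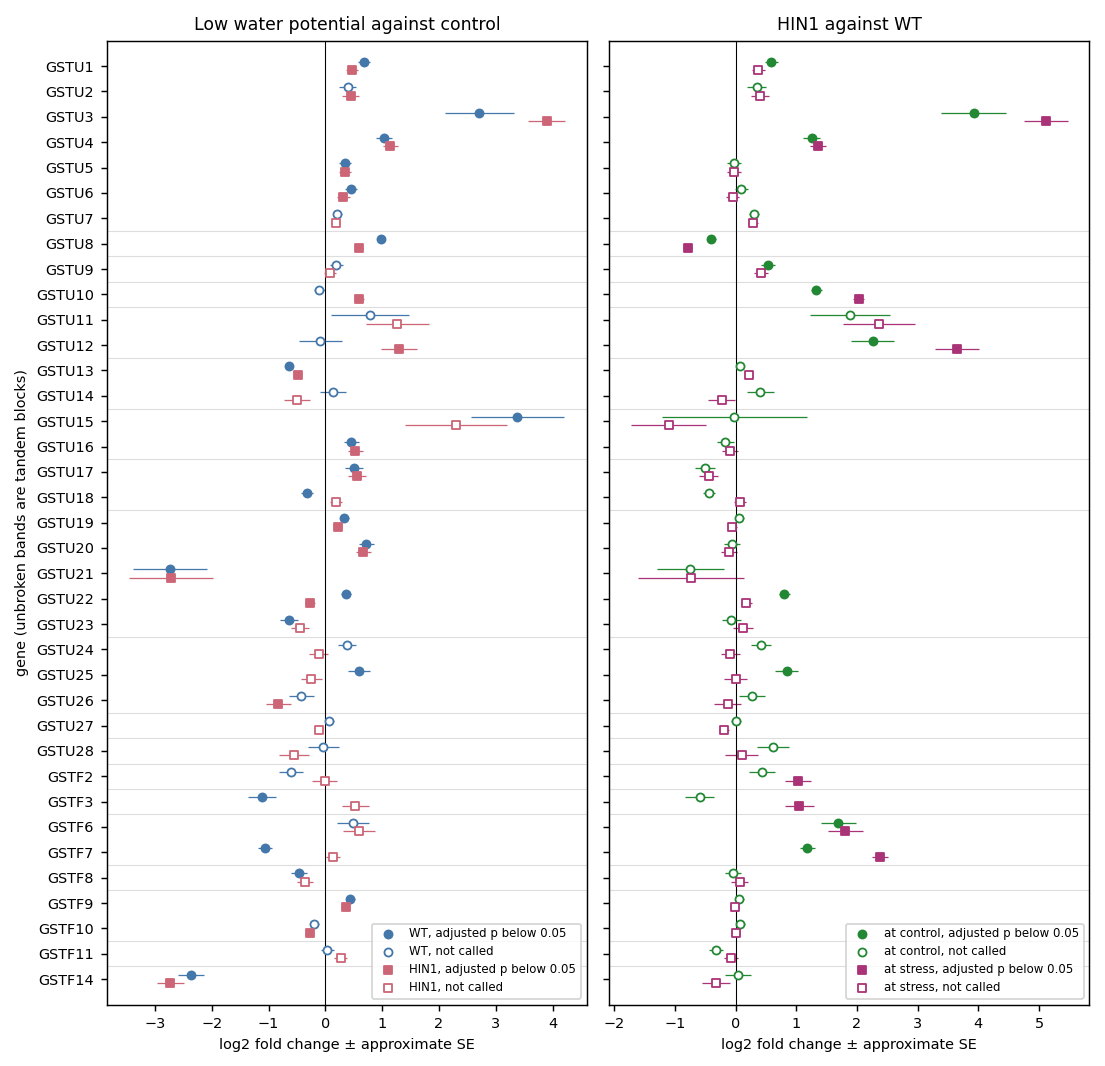
Log2 fold changes of the 37 members with their standard errors, for the stress response of each genotype and for HIN1 against WT at each water potential, with members grouped by class and tandem array. Filled points are called at an adjusted p below 0.05; GSTU3, GSTU12, GSTU10, GSTU4, GSTF6 and GSTF7 lie to the right in both genotype comparisons and GSTU8 to the left.

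The 6 genes that were higher in HIN1 at both water potentials were GSTU3, GSTU4, GSTU10, GSTU12, GSTF6 and GSTF7, and their 12 calls held in every alternative that was run. GSTU3 (AT2G29470) had the widest difference and was almost unread in WT. Its reads were 4, 2 and 0 in WT control, 16, 9 and 18 in WT stress, 24, 42 and 32 in HIN1 control and 393, 553 and 580 in HIN1 stress. These are levels of 0.0738, 0.0402 and 0 scaled RPKM, then 0.265, 0.17 and 0.362, then 0.443, 0.781 and 0.628, then 7.2, 9.65 and 10.8. The 4 groups did not overlap and stood in that order. Reads of GSTU3 reached 10 in all HIN1 libraries but only in some WT libraries, so the filter kept it through HIN1.

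At stress the GSTU3 level of HIN1 was 34.6-fold that of WT (log2 fold change 5.11 ± 0.36, adjusted p = 8.3e-06). At control the value was 3.93 ± 0.54 (adjusted p = 0.00185), and without WT control library 1 or 3 it was 4.83 or 3.37, since the WT control reads are so few. Stress raised it by 3.90 ± 0.32 in HIN1 (adjusted p = 9.81e-06) and by 2.71 ± 0.60 in WT (adjusted p = 0.00545), the latter between 2.15 and 3.61 when single libraries were left out, the lowest without WT control library 3 and the highest without WT control library 1. The difference between the responses, 1.19 ± 0.88, was not called (adjusted p = 0.696).

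GSTU4 (AT2G29460) lies next to GSTU3, with 81.6% of coding bases identical. It stood at 2.06, 2.34 and 1.9 scaled RPKM in WT control, 4.44, 3.7 and 4.76 in WT stress, 4.85, 5.54 and 4.63 in HIN1 control and 9.6, 11.6 and 11.9 in HIN1 stress. HIN1 control libraries were about level with WT stress libraries, and HIN1 stress was the highest group. The difference between genotypes was 1.25 ± 0.14 at control (adjusted p = 0.000443) and 1.36 ± 0.13 at stress (adjusted p = 8.8e-05). Its stress response was 1.03 ± 0.14 in WT (adjusted p = 0.000219) and 1.14 ± 0.13 in HIN1 (adjusted p = 0.0001), a difference of 0.11 that was not called (adjusted p = 0.89). GSTU1 (AT2G29490), at the other end of the array, stood at 18.1, 16.5 and 23.2 in WT control, 33.3, 29.1 and 30.3 in WT stress, 30.5, 29.2 and 27.4 in HIN1 control and 37.8, 43.1 and 39.5 in HIN1 stress. It was higher in HIN1 by 0.59 ± 0.11 at control (adjusted p = 0.014), where the groups did not overlap, and had 0.38 ± 0.11 at stress (adjusted p = 0.107). The control call was lost in 3 of 6 fits that left out 1 library, with adjusted p up to 0.063 without WT control library 1. It was also lost with only the groups compared (adjusted p = 0.0806). Stress raised GSTU1 by 0.68 ± 0.11 in WT (adjusted p = 0.000774) and by 0.47 ± 0.11 in HIN1 (adjusted p = 0.00809).

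GSTU10 (AT1G74590) is a single gene on chromosome 1 at 28023627 to 28024860. It stood at 8.98, 8.28 and 9.68 in WT control, 8.4, 7.45 and 9.2 in WT stress, 22.8, 21.1 and 23.9 in HIN1 control and 30.5, 35.5 and 36 in HIN1 stress. The WT groups overlapped, and every HIN1 library was more than 20 scaled RPKM. HIN1 was higher by 1.33 ± 0.10 at control (adjusted p = 2.09e-05) and by 2.03 ± 0.10 at stress (adjusted p = 4.09e-07). GSTU10 rose at stress in HIN1 by 0.59 ± 0.09 (adjusted p = 0.000766) and had -0.11 ± 0.10 in WT (adjusted p = 0.44), and the difference of 0.69 ± 0.13 was not called (adjusted p = 0.0886). DESeq2 called this difference. Opposite to GSTU10, AT1G74580 covers 22.6% of the gene and was not called in any of these comparisons.

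GSTU12 (AT1G69920) lies beside GSTU11 on chromosome 1, with no gene between them. GSTU12 stood at 1.15, 0.499 and 0.671 in WT control, 0.732, 0.382 and 1.09 in WT stress, 4.62, 3.13 and 3.48 in HIN1 control and 7.43, 11.4 and 8.79 in HIN1 stress. The WT groups overlapped, and both HIN1 groups stood above them and apart from each other. The difference between genotypes was 2.26 ± 0.36 at control (adjusted p = 0.00474) and 3.65 ± 0.36 at stress (adjusted p = 9.8e-05). At stress it rose by 1.30 ± 0.32 in HIN1 (adjusted p = 0.0106) and had -0.09 ± 0.38 in WT (adjusted p = 0.886), and the difference between the responses was not called (adjusted p = 0.48). GSTU11 had log2 fold changes of 1.89 at control (adjusted p = 0.154) and 2.37 at stress (adjusted p = 0.0549), and it was not called.

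**Figure D4:**
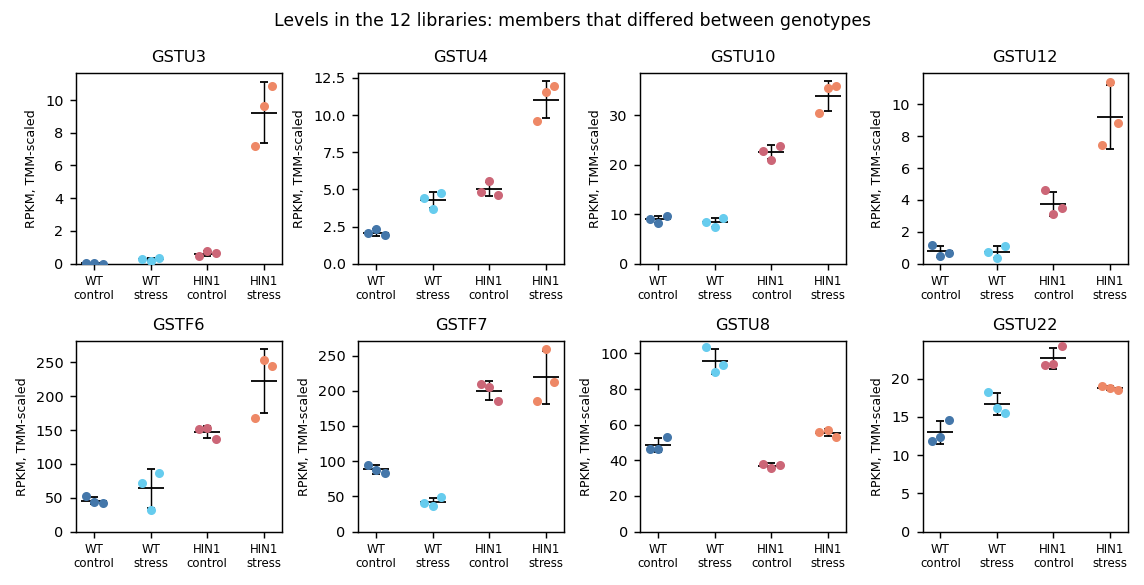
Level in every library of 8 members called between the genotypes, in scaled RPKM on linear axes from 0, by group, with points for libraries and bars for the group mean and SD (n = 3). HIN1 libraries of GSTU3, GSTU4, GSTU10, GSTU12, GSTF6 and GSTF7 lie above the WT libraries at the same water potential, those of GSTU8 below, and those of GSTU22 above at control.

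Among the phi genes, those called higher in HIN1 at both water potentials were the pair GSTF6 (AT1G02930) and GSTF7 (AT1G02920), neighbours on chromosome 1 at 661088 to 662475 and 658578 to 659980, with 94.3% of coding bases identical. GSTF6 is known for a role in camalexin synthesis, and both genes are known to respond to salicylic acid. The pair summed to 134 ± 11.4 scaled RPKM in WT control, 106 ± 34.4 in WT stress, 347 ± 21.8 in HIN1 control and 442 ± 81.5 in HIN1 stress. GSTF6 stood at 51.9, 43.3 and 41.6 in WT control, 72.3, 31.8 and 86.9 in WT stress, 152, 153 and 137 in HIN1 control and 168, 254 and 245 in HIN1 stress. Every HIN1 library was above every WT library, and WT stress library 2 was the lowest of all. The difference between genotypes was 1.69 ± 0.29 at control (adjusted p = 0.0079), and HIN1 was 3.49-fold higher at stress (adjusted p = 0.00329). GSTF6 was not called for stress in WT (0.48 ± 0.28, adjusted p = 0.219) or HIN1 (0.59 ± 0.28, adjusted p = 0.139).

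GSTF7 was the only one of the 37 members called for the difference between the stress responses, 2.7% of the family, where 0.157% of all genes were called, 0.153% with a higher and 0.00436% with a lower response in HIN1. It stood at 94.5, 87.6 and 82.6 scaled RPKM in WT control, 41.2, 36.4 and 48.7 in WT stress, 210, 205 and 185 in HIN1 control and 185, 259 and 213 in HIN1 stress. In WT the stress libraries were below all controls, and in HIN1 the groups overlapped. GSTF7 fell by 1.07 ± 0.13 in WT (adjusted p = 9.44e-05) and had 0.13 ± 0.13 in HIN1 (adjusted p = 0.478). The difference between the responses was 1.20 ± 0.18 (adjusted p = 0.024). HIN1 was higher by 1.18 ± 0.13 at control (adjusted p = 0.000353) and by 2.38 ± 0.13, 5.21-fold, at stress (adjusted p = 1.64e-06). The call of the difference was lost in 8 of 12 fits that left out 1 library, with values of 1.06 to 1.31 and adjusted p up to 0.0983, the highest without HIN1 control library 3, and with a replicate block (adjusted p = 0.077).

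GSTF2 and GSTF3 (AT2G02930), with 94.5% of coding bases identical but on chromosomes 4 and 2, were called between the genotypes at stress alone. GSTF2 stood at 164, 163 and 174 in WT control, 114, 90.3 and 125 in WT stress, 254, 205 and 221 in HIN1 control and 136, 286 and 251 in HIN1 stress. The genotypes did not overlap at either water potential, and HIN1 stress library 1 stood well below the other libraries of its group. The difference at stress was 1.03 ± 0.22 (adjusted p = 0.0203), and at control it was 0.44 ± 0.22 (adjusted p = 0.294). The stress response of GSTF2 was -0.60 in WT (adjusted p = 0.0525), without overlap, and -0.02 in HIN1 (adjusted p = 0.968). The WT response was called by DESeq2 and with only the groups compared. The difference between the responses, 0.59, was not called (adjusted p = 0.578). Opposite to GSTF2, AT4G02510 covers 85.3% of the gene with 16980 to 22794 reads and was not called in these comparisons. GSTF3 stood at 1.55, 1.65 and 1.8 in WT control, 0.665, 0.793 and 0.843 in WT stress, 0.926, 1.05 and 1.34 in HIN1 control and 1.05, 1.97 and 1.74 in HIN1 stress. HIN1 was below WT at control and above it at stress, without overlap, and the difference was -0.59 at control (adjusted p = 0.21) and 1.05 ± 0.24 at stress (adjusted p = 0.0356). It fell by 1.12 ± 0.24 at stress in WT (adjusted p = 0.00493), and the difference between the responses was 1.64 ± 0.34 (adjusted p = 0.134). That difference was called by DESeq2 and without HIN1 stress library 1. The stress calls of GSTF2 and GSTF3 were lost in 4 and 5 of 6 fits that left out 1 library, with adjusted p up to 0.099 without WT stress library 2 and up to 0.17 without HIN1 stress library 2. Both were also lost with only the groups compared.

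GSTU8 went the other way and was the only member called lower in HIN1 in edgeR's test. At the levels given above, the HIN1 libraries lay below the WT libraries at both water potentials. The difference was -0.40 ± 0.07 at control (adjusted p = 0.01) and -0.79 ± 0.07 at stress (adjusted p = 3.97e-05). Its control call was lost without HIN1 control library 2 (adjusted p = 0.0539) and with only the groups compared (adjusted p = 0.0599). GSTU18 had -0.44 at control (adjusted p = 0.0503), just short of a call, and DESeq2 called GSTU17 and GSTU18 lower there. Of the 37 members, 12 had a negative log2 fold change at control and 16 at stress. The stress response of GSTU8 differed by -0.39 ± 0.10 between the genotypes, which was not called (adjusted p = 0.277). This difference was called by DESeq2 and without WT control library 3.

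Besides GSTU1, given above, GSTU22, GSTU9 and GSTU25 were called between the genotypes at control alone. At the levels given above GSTU22 was higher in HIN1 by 0.81 ± 0.09 at control (adjusted p = 0.00041) and had 0.18 ± 0.09 at stress (adjusted p = 0.541). GSTU9 (AT5G62480) stood at 9.77, 10.6 and 13.1 in WT control, 12.7, 13.3 and 12.3 in WT stress, 14, 16.6 and 17.7 in HIN1 control and 16, 17.9 and 17.1 in HIN1 stress. HIN1 libraries were above WT libraries at both water potentials, with 0.53 ± 0.11 at control (adjusted p = 0.0295) and 0.42 at stress (adjusted p = 0.0793). The control call was lost in 4 of 6 fits that left out 1 library, with adjusted p up to 0.11 without WT control library 1. It was also lost with only the groups compared (adjusted p = 0.139).

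GSTU25 (AT1G17180), which conjugates the explosive trinitrotoluene, stood at 19.1, 14.1 and 27.3 in WT control, 32.4, 31.2 and 27.7 in WT stress, 40.2, 32.6 and 35.8 in HIN1 control and 31.5, 34.1 and 25.9 in HIN1 stress. WT control libraries 1 and 2 were low and library 3 was near the other groups. GSTU25 was higher by 0.84 ± 0.19 in HIN1 at control (adjusted p = 0.0391) and by 0.59 ± 0.19 at stress in WT (adjusted p = 0.0345), and these calls were lost in 5 and 4 of 6 fits that left out 1 library, with adjusted p up to 0.14 without WT control library 1 and up to 0.102 without WT stress library 1. The genotype call was also lost with a replicate block (adjusted p = 0.0682). Both calls were lost with only the groups compared. GSTU14, GSTU26 and GSTU28 showed the same split of the WT control libraries, with 9.73, 9.69 and 19.9, then 34.8, 36.3 and 62.5, then 4.77, 4.11 and 9.11 scaled RPKM.

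Some root markers showed the same split and others did not, and those named here were chosen after their values were seen. CASP1, of the root endodermis, had 16, 15.5 and 31.7 in WT control against 26.3 to 35.6 in the other 9 libraries, and the 11 root markers summed to 71.8, 65.1 and 102 against 84.4 to 106, and none was at 0. SCR stood at 16.6, 15.2 and 15.3 and SHR at 12.7, 11.2 and 12.7 in WT control, without the split. Of the root markers, 1 was called higher at stress in WT, 2 higher and 1 lower in HIN1, and 0 between genotypes in edgeR's test, where 3 at control and 0 at stress had an unadjusted p under 0.05. The 9 shoot markers summed to 23552, 25249 and 19324 in WT control and to 16936, 18323 and 17657 in WT stress. They summed to 20400, 18735 and 21647 in HIN1 control and to 18796, 17522 and 18136 in HIN1 stress. Of them, 1 was called higher and 6 lower at stress in WT, and 1 higher and 3 lower in HIN1. Between genotypes 0 were called in edgeR's test, where 4 at control and 1 at stress had an unadjusted p under 0.05. The part of these markers in the GST results was not tested.

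Of the family, GSTU7, GSTU11, GSTU14, GSTU24, GSTU27, GSTU28 and GSTF11 were called in none of the 4 pairwise comparisons. GSTU27 was the steadiest of them, with 44.6 to 55.5 scaled RPKM over the 12 libraries. In the authors' deposited table, 15 members were higher and 9 lower at stress in WT, against 26.8% of all genes with an adjusted p there, 12.6% higher and 14.2% lower. Between the genotypes at control, the authors' deposited table had 12 members higher and 2 lower in HIN1, against 4.64% of all genes, 3.19% higher and 1.44% lower. At stress the authors' deposited table had 12 higher and 2 lower, against 4.5%, 3.94% higher and 0.557% lower.

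Both directions were found at stress among the phi genes outside the rule, with 2 higher and 2 lower in WT and 2 higher and 1 lower in HIN1. GSTF12, the anthocyanin carrier TT19, rose by 4.51 ± 0.48 in WT (adjusted p = 4.24e-05) and by 3.30 ± 0.45 in HIN1 (adjusted p = 0.000322). GSTF5 rose by 2.58 ± 0.53 (adjusted p = 0.00356) and 3.02 ± 0.54 (adjusted p = 0.00173). GSTF13 fell by 1.25 in HIN1. None of the 4 was called between the genotypes in edgeR's test, and 0 had an unadjusted p under 0.05. Among 12 genes of the other GST classes, 4 were higher and 1 lower at stress in WT and 5 higher and 1 lower in HIN1. Dehydroascorbate reductase DHAR1 rose by 0.80 ± 0.11 in WT (adjusted p = 0.00021) and 0.73 in HIN1 (adjusted p = 0.00049), and the lambda gene GSTL1 fell by 0.92 (adjusted p = 0.00353) and 1.22 (adjusted p = 0.000705). At stress, DHAR2 was lower in HIN1 with a log2 fold change of -0.38 ± 0.07 (adjusted p = 0.0125).

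Genes that make and recycle glutathione moved in both directions. Of 8 such genes, 2 were higher and 3 lower at stress in WT, and 1 was higher and 3 lower in HIN1. GSH2, glutathione synthetase, fell by 0.34 in WT (adjusted p = 0.000188), and the glutathione reductase gene GR1 rose by 0.35 (adjusted p = 0.0015). The vacuolar conjugate transporters ABCC1, ABCC2 and ABCC3 were all 3 called higher at stress in WT, and 2 were in HIN1. Of 8 TGA and SCL14 regulator genes, 2 were higher and 2 lower in WT and 3 higher and 2 lower in HIN1, and TGA4 fell by 0.80 (adjusted p = 6.26e-06) and 0.61 (adjusted p = 5.7e-05). Of 6 other xenobiotic response genes, 3 were higher and 1 lower at stress in each genotype. None of the 6 was called for the difference between the responses. Among these, the cytochrome P450 gene CYP81D8 rose by 0.71 ± 0.18 in WT (adjusted p = 0.00982) and by 1.72 ± 0.17 in HIN1 (adjusted p = 3.77e-05), and it was higher in HIN1 at stress by 1.71 ± 0.17 (adjusted p = 0.000112). Between genotypes none of the 41 genes in these lists was called at control in edgeR's test, with 8 at an unadjusted p under 0.05, whereas 3 were called by DESeq2. At stress 3 were called, namely DHAR2, CYP81D8 and the glutathione-degrading GGT1, which was higher by 0.52 ± 0.11 (adjusted p = 0.0196).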

How the data were processed

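The authors deposited 1 table per library, which holds expected counts, that is gene reads that need not be whole, with RPKM, gene length and the fraction of reads at several sites, per the file headers. Between 4.09% and 4.56% of genes had fractional reads. Per the submitters' processing notes, reads went through CASAVA with bcl2fastq 1.8.4, Trimmomatic 0.35 and Bowtie2, DESeq2 is named as well, and TAIR10 is the build. The sources used here do not give the counting program. The authors' deposited comparison tables give mean signal, log2 fold change, its error, a test score and p-values per gene.

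The deposited counts were rounded, then fitted with edgeR 4.0.16 (limma 3.58.1, R 4.3.3). filterByExpr with a minimum count of 10 kept 22924 of 33602 genes. All 12 libraries entered 1 quasi-likelihood fit with 4 group coefficients, 8 residual degrees of freedom, TMM factors of 0.947 to 1.033 and a common dispersion of 0.01701 (13.04% biological coefficient of variation). Tests were two-sided, with Benjamini-Hochberg adjustment across the 22924 genes. The interaction sets the stress response of HIN1 against that of WT. Standard errors were derived from each log2 fold change and its F statistic. Levels are TMM-scaled CPM per kilobase of the deposited length. The script was tested on simulated data. Depth was 58 M to 68.56 M gene reads, and low genes are limited by their few reads.

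Coordinates, promoter windows and coding sequences were read from RefSeq TAIR10.1 with Python 3.11.15 and Biopython 1.88, and 1 promoter window is not reported here. Members and lists were chosen with earlier results of these data known. Values in every library are given by rule for members called between genotypes or in the interaction, for called members with a log2 fold change of at least 1 either way at stress, and for the 3 members of highest mean. The members called between genotypes, and the windows printed, follow from these same values. Alternatives were other size factors, DESeq2 1.42.0, no filter, only the groups compared, removal of reads at several sites, a replicate block and leaving out each library. The p-values cover the variation among experiments on a single line of each genotype.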

Additional observations from a re-analysis of the deposited data

Results flagged for a closer look

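The difference between the stress responses of the genotypes was called for GSTF7, by a test of the difference itself. The response of HIN1 less that of WT was 1.20 on the log2 scale (standard error 0.18, adjusted p = 0.024 in edgeR's quasi-likelihood test). Levels fell by 1.07 in WT and had 0.13 in HIN1. The call was lost in 8 of 12 fits that left out 1 library, with adjusted p up to 0.0983 in the same test, and with a replicate block. No explanation was tested.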

How the results depend on the processing

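No value of a member changed sign where it was called. DESeq2 1.42.0 called 14 members between genotypes at stress and 5 in the interaction, against 9 and 1, while calls over all genes went from 785 to 1054 and from 36 to 214. The 5 in the interaction were GSTU8, GSTU10, GSTU22, GSTF3 and GSTF7. With only the groups compared in the fit, 7 members were called between genotypes at control, against 11, and 300 of all genes against 633. Such fits lost the control calls of GSTU1, GSTU8, GSTU9 and GSTU25 and the calls of GSTF2 and GSTF3 between genotypes at stress. They also lost the calls for stress of GSTU5, GSTU16, GSTU18, GSTU25 and GSTF8 in WT and of GSTU19 in HIN1. Leaving out 1 library at a time gave 16 to 23 members called for stress in WT, 13 to 16 for stress in HIN1, 7 to 16 between genotypes at control, 7 to 9 at stress and 0 to 6 in the interaction, the 16 and the 6 without WT control library 3, where calls over all genes went from 633 to 2288 and from 36 to 238. The other lists together held 25, 24, 0, 3 and 0 called genes, with 18 to 23, 17 to 22, 0 to 4, 1 to 3 and 0 to 0 in those fits. For the lists at control between genotypes, DESeq2 called 3, no filter 1 and the replicate block 1, and in their interaction DESeq2 called 1. The causes of these shifts were not tested, except that fewer libraries enter some fits. The replicate numbers were not taken to pair the libraries, since the labels state no block. Of 18 same-numbered pairs, 5 had a correlation of deviations over 0.1 (range -0.218 to 0.274). These 5 were all outside WT control, where every same-numbered pair had a positive value. Whether same-numbered pairs there shared a batch was not tested. Those numbered 3 outside WT control had 0.241, 0.274 and 0.179, and library 3 of each group had the highest share of reads at several sites (1.84% to 2.6% against 1.33% to 1.58%). With the replicate block 22, 20, 11, 10 and 0 members were called. Genes with few reads, such as GSTU3, GSTU15 and GSTU21, have the widest ranges.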
